A study of Rattus norvegicus and Mus musculus with 34 samples.

Results

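Transection of the inferior alveolar nerve was compared with an intact nerve in healing periodontal bone at day 14, in 4 rats a side. These 8 rats were taken by their sample titles from the 34 samples of the study, of which 23 were rat tissue, and all 20022 genes listed by symbol for them were considered. Every rat was a male wild-type Sprague-Dawley animal, 6 to 8 weeks old, kept free of specific pathogens, with a standardized bone defect on the buccal side of the mandible and penicillin injections after it. In the sensory nerve- group the nerve had been cut and a segment of it taken out, and in the sensory nerve+ group the nerve was intact, with no sham operation named for that group in the sources used here. The tissue within the defect was collected as mixed cells and its mRNA was sequenced, and rats with a local infection had been left out by the study. The labels do not say whether each library came from a separate animal, so p-values measure only the spread between these samples, which may be technical in part. The question was what the loss of sensory innervation did to gene expression in the wound at the last of the 3 days sequenced.

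The inferior alveolar nerve carries sensation from the lower teeth, gum and lip. Its neurons lie in the trigeminal ganglion outside the jaw, and within the bone it consists of their axons with the Schwann cells that ensheath them. Myelinating Schwann cells build the sheath from a small set of proteins and lipids, and distal to a cut the axon breaks down and its Schwann cells give up the myelin program, a process known as Wallerian degeneration. A healing bone defect is remodelled by osteoclasts, which dissolve mineral and matrix, by osteoblasts, which lay new matrix down, and by osteocytes, which are osteoblasts that matrix has enclosed.

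The 8 libraries held between 14854389 and 18274588 counts, and 14610 genes had enough counts to be tested. Levels are given in CPM, the counts of a gene relative to the library's total after trimmed-mean (TMM) scaling, and a fold change is sensory nerve- over sensory nerve+ on the log2 scale from edgeR, with its standard error (SE). Genes of bone and of the periodontal ligament were present in every rat, with the ligament matrix gene Postn between 368 and 2130 CPM. The keratin gene Krt5 of the gum epithelium did not exceed 1.99 CPM. A pair of libraries stood apart. Replicate 2 of the sensory nerve+ group lay at -2.44 on the first axis of a scaling plot that took 56.1% of the variation, while the other sensory nerve+ rats lay between 2.01 and 2.33 and the sensory nerve- rats between -2.58 and 1.02. It held little muscle RNA, with a summed muscle level of 405 CPM against at least 23894 CPM in the other sensory nerve+ rats, and its neutrophil level was the highest of the 8 rats. Replicate 3 of the sensory nerve- group held 4269140 counts of the hemoglobin gene Hba-a1, or 23.4% of its library. Replicates 1 and 4 of that group, at 12.9% and 15.3%, were also above every intact rat. The highest intact rat was at 9.46%, and sensory nerve- replicate 2 was the lowest of all at 0.13%. Results are therefore also given without sensory nerve+ replicate 2 and without sensory nerve- replicate 3. No sample was dropped from the values below unless that is stated.

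No gene passed the test at day 14 by edgeR at a Benjamini-Hochberg adjusted p under 0.05, which is 0% of the genes tested, and the smallest adjusted p was 0.519. At an unadjusted p under 0.05 there were 1362 genes. Of all genes tested, 4.35% met that mark and were higher after transection and 4.98% met it and were lower. In 212 genes (1.45%) every sensory nerve- rat was above every sensory nerve+ rat, and in 263 genes (1.8%) every one was below. DESeq2, run on the same counts, called 95 genes at its adjusted p under 0.05, of which 30 were higher (0.205%) and 65 lower (0.445%), and 2099 genes had an unadjusted p under 0.05 there. Without replicate 2 of the sensory nerve+ group, edgeR still called no gene, with a smallest adjusted p of 0.0894, while 3235 genes reached an unadjusted p under 0.05. In that fit 7.67% of the genes tested were higher at that mark and 14.2% were lower. Without replicate 3 of the sensory nerve- group the smallest adjusted p was 0.179, and 4.67% of genes were higher and 8.09% lower at that mark. The groups below are therefore described by their values in each rat and set against these background shares, with no claim that a single gene passed edgeR.

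Genes of myelinating Schwann cells were much lower after transection. Mag, the myelin-associated glycoprotein that faces the axon, measured 17.1, 1.74, 3.15 and 9.09 CPM in sensory nerve+ replicates 1 to 4, the lowest being replicate 2, the library that stood apart. It came to 1, 0, 3 and 1 counts in the transected rats, against 343, 39, 60 and 171 counts in the intact ones. The groups did not overlap, and the fitted log2 fold change of -6.21 (SE 1.09) rests on those few counts and depends on the prior count of the fit. It was -6.61 without sensory nerve+ replicate 2 and -7.23 without sensory nerve- replicate 3. The same held for Gldn, or gliomedin, which gathers sodium channels at the nodes of Ranvier, with a log2 fold change of -5.98 (SE 1.16) and 0, 5, 5 and 1 counts in the transected rats. Ncmap, a protein of noncompact myelin, had a log2 fold change of -5.41 (SE 1.04), and Cldn19, the claudin of peripheral myelin, also one of -5.41 (SE 1.09). Adjusted p values by DESeq2 for these 4 genes lay between 1.05e-05 and 3.76e-05. All 4 were near 0 in most transected rats and passed the count filter only through the intact rats. They therefore had to differ, and these p values are no separate support. The promoters of Mag and Gldn are shown because the genes had some of the smallest p values and moved together, as the 250 bases before the transcription start in RefSeq's rat assembly GRCr8, written 5′ to 3′ on the gene's strand. Capitals mark the SOX-family core motif, searched as ACAAAG or ACAATG on both strands.
Mag, chr1:95291045-95291294, minus strand: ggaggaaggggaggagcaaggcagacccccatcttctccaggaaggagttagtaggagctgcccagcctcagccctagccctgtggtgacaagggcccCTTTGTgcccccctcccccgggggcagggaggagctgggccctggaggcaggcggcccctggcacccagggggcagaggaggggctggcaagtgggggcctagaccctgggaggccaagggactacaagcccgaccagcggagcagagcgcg
Gldn, chr8:63575020-63575269, plus strand: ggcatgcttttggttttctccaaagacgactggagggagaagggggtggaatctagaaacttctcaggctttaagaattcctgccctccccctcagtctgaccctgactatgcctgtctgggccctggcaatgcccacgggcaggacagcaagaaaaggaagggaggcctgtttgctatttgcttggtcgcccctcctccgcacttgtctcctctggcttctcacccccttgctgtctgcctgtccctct
The Mag window held 1 such motif and the Gldn window held none. Of the 20 myelinating genes tested, 16 had a window in the RefSeq table and 3 of those held a motif, beside 25.3% of all 33469 windows. No site or binding was measured.

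Genes for the enzymes and scaffold proteins of the sheath were lower as well. Ugt8, which makes the galactolipids of myelin, measured 34.7, 17.6, 6.04 and 20.3 CPM in the intact rats and 1.61, 1.69, 2.16 and 4.32 CPM in the transected rats. The lowest intact rat was above the highest transected rat, with a log2 fold change of -3.01 (SE 0.57) and an adjusted p of 0.000216 by DESeq2. Prx, the periaxin that links the sheath to its surrounding matrix, measured 116, 10.5, 27.5 and 56.8 CPM against 3.29, 9.03, 8.25 and 5.63 CPM, with a log2 fold change of -3.00 (SE 0.72). Mbp, which compacts the myelin membranes, measured 362, 59.1, 84.0 and 128 CPM against 35.7, 46.2, 36.7 and 29.7 CPM. Neither gene overlapped between the groups. The Mbp difference was smaller, at -2.09 (SE 0.55) on the log2 scale.

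**Figure D1:**
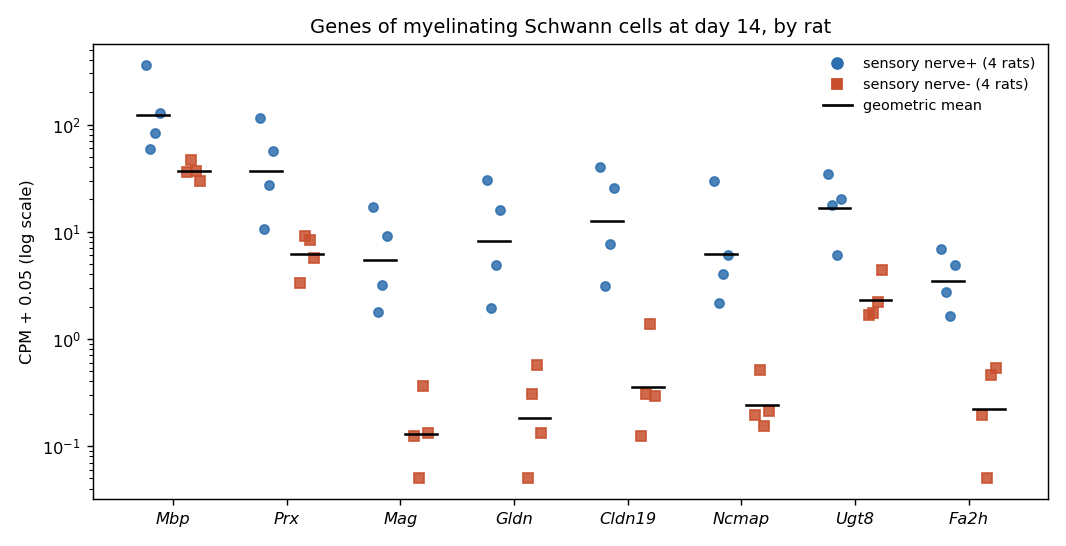
Levels of 8 genes of myelinating Schwann cells at day 14, in CPM plus 0.05 on a log axis, with 1 point per rat, circles for sensory nerve+, squares for sensory nerve- and lines for the geometric mean of 4 rats. In all 8 genes the 4 circles lie above the 4 squares, and the circles of each gene spread widely, as for Mbp from 59.1 to 362 CPM.

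Over the whole list of myelinating Schwann cell genes, 20 of 22 members had enough counts and all 20 were lower after transection, with a median log2 fold change of -2.23 beside 0.03 over all genes tested. In 16 of the 20 the unadjusted p was under 0.05, where 4.98% of all genes were lower at that mark. In 11 the groups did not overlap, beside 1.8% of all genes in that direction. DESeq2 called 11 of them, beside 0.445% of all genes called lower. Members near 0 in the transected rats passed the count filter only through the intact rats and so had to differ. Such members, Mag and Gldn among them, are included in the 11 without overlap and in the 11 that DESeq2 called. Among the 14 members with a mean of at least 1 CPM in the transected rats, the median was -1.62 and 10 had an unadjusted p under 0.05. The list's median was -2.59 without sensory nerve+ replicate 2, with 18 members at that mark, and -2.43 without sensory nerve- replicate 3, with 15. In these 2 fits 14.2% and 8.09% of all genes were lower at the mark.

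Further members, named after their values were seen, differed among themselves. Pmp22, a membrane protein of compact myelin, had a log2 fold change of -2.37 (SE 0.66), and its groups overlapped through sensory nerve+ replicate 2 at 53.9 CPM and sensory nerve- replicate 3 at 72.9 CPM. Fa2h, which hydroxylates the fatty acids of myelin lipids, differed by -4.00 (SE 0.88), and Pllp, or plasmolipin, by -3.31 (SE 0.92). A further 4 Schwann cell genes differed less. Sox10, the transcription factor that defines the lineage, differed by -1.84 (SE 0.63), and Erbb3, the receptor for axonal neuregulin, by -1.51 (SE 0.49). Egr2, the regulator that switches the myelin genes on, differed by -1.03 (SE 0.49), and the calcium-binding protein gene S100b by -0.73 (SE 0.46). In each of these 4 the groups overlapped. Cnp, an enzyme of the myelin cytoplasm that other cells also make, differed by only -0.68 (SE 0.18), although its groups did not overlap. Mal, a membrane protein of myelin that T cells also make, stood at -0.04 (SE 0.56), within the spread between rats, and turned positive when some single rats were left out. In bulk tissue, fewer cells of a type and less RNA per cell cannot be told apart, here and in every result that follows. The summed level of the list ran from 587 to 3145 CPM in the intact rats and from 350 to 554 CPM in the transected rats.

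Further genes linked to myelinated nerve appeared among those that DESeq2 called, and they too were named after their values were seen. Pou3f1, a transcription factor of Schwann cells on the way to myelination, measured 8.51, 1.39, 1.42 and 8.29 CPM against 0.146, 0.154, 0.722 and 0.163 CPM. Pmp2, the fatty acid-binding protein of peripheral myelin, measured 35.3, 4.11, 4.99 and 30.4 CPM against 0, 0, 1.96 and 0.163 CPM. Kcna1, a potassium channel placed beside the nodes of Ranvier, measured 8.16, 0.447, 0.735 and 3.56 CPM and was at 0 in 3 transected rats. All 3 genes were lower in every transected rat. They were near 0 in most of those rats and passed the count filter only through the intact rats, so they had to differ.

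Markers of the repair state of Schwann cells were mostly lower too, by less. Of 17 tested members of that list, 3 were higher and 14 lower, with a median of -0.48. An unadjusted p under 0.05 was reached by 2, both lower, beside 4.98% of all genes in that direction. Without sensory nerve+ replicate 2 there were 6 of 18, all lower, with a median of -0.77, where 14.2% of all genes were lower at that mark. Without sensory nerve- replicate 3 there were 3 of 18, with a median of -0.58, where 8.09% of all genes were. The low-affinity neurotrophin receptor gene Ngfr, a marker of non-myelinating and repair cells, measured 104, 52.4, 95.5 and 117 CPM in the intact rats and 13.0, 96.2, 48.3 and 25.8 CPM in the transected rats. The groups overlapped at a log2 fold change of -1.01 (SE 0.57). The 2 members at the mark were Gfap, an intermediate filament of non-myelinating Schwann cells, at -2.65 (SE 0.76), and the adhesion molecule gene L1cam at -1.15 (SE 0.37). Their groups overlapped too.

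Transcripts of the axons themselves were scarce in both groups. Of 18 genes of axons and nociceptors, 6 had enough counts, 1 was higher and none reached an unadjusted p under 0.05, with a median of -0.64. The median was -0.98 without sensory nerve+ replicate 2, and 3 of 7 genes then reached that mark, all lower, where 14.2% of all genes did. Calca, which encodes the sensory neuropeptide CGRP, had 1, 2, 4 and 5 counts in the intact rats and 0, 0, 1 and 0 counts in the transected rats, and its sister gene Calcb had 13, 4, 1 and 2 against 0, 0, 2 and 0. Values this near the floor of 3 counts give no fold change, and a difference was not detectable at this depth. Gap43, a growth cone protein, measured 17.8, 9.16, 30.8 and 27.9 CPM against 4.82, 23.1, 20.0 and 5.79 CPM, with a log2 fold change of -0.67 (SE 0.59). Tubb3, the neuronal beta tubulin, measured 5.97, 1.48, 5.30 and 6.01 CPM against 2.48, 2.31, 3.71 and 4.40 CPM, at -0.54 (SE 0.46). The heat and capsaicin channel gene Trpv1 stood at -1.04 (SE 0.65). All 3 overlapped between the groups. The 3 genes at the mark without sensory nerve+ replicate 2 were Trpv1 at -1.44, Tubb3 at -0.88 and Stmn2, a tubulin-binding protein of growing axons named after its value was seen, at -1.96. The neurofilament genes Nefl and Nefm, named after their values were seen, had too few counts to be tested, and each was above 3 CPM in sensory nerve+ replicates 1 and 4 and below 0.5 CPM in the other 6 rats.

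Genes of osteoclasts were higher after transection in 3 of the 4 rats. Itgb3, the beta3 integrin by which osteoclasts hold to bone, measured 40.6, 42.1, 24.8 and 46.7 CPM in the intact rats. In the transected rats it measured 173, 66.2, 131 and 224 CPM. The groups did not overlap, the log2 fold change was 1.95 (SE 0.38), and DESeq2 gave an adjusted p of 0.0016. Acp5, the tartrate-resistant acid phosphatase used to stain osteoclasts, measured 328, 647, 345 and 255 CPM in the intact rats and 1511, 2400, 194 and 2743 CPM in the transected rats. Replicates 1, 2 and 4 of the transected group were far above all intact rats, while replicate 3, the library richest in hemoglobin, was below all of them. The log2 fold change of Acp5 was 2.12 (SE 0.72) over all 8 rats and 2.47 without that library.

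Ctsk, or cathepsin K, the protease that digests bone collagen, had the same order of rats, with 1353, 1730, 1245 and 850 CPM against 3329, 6869, 657 and 6195 CPM. Its log2 fold change was 1.72 (SE 0.65). Tnfrsf11a, which encodes the receptor RANK that starts osteoclast formation, measured 13.8, 13.0, 11.4 and 9.36 CPM against 34.0, 48.0, 8.86 and 44.4 CPM, at 1.51 (SE 0.46). The proton pump subunit gene Atp6v0d2 stood at 1.62 (SE 0.53), the chloride channel gene Clcn7 at 1.09 (SE 0.37) and the gelatinase gene Mmp9 at 1.70 (SE 0.63). In every one of these 5 genes replicate 3 of the transected group was the low one and the only transected rat within or below the intact range. Of the 19 osteoclast genes tested, 18 were higher, with a median of 1.46, and 15 had an unadjusted p under 0.05, where 4.35% of all genes did in that direction. In 1 of the 19, Itgb3, the groups did not overlap, beside 1.45% of all genes in that direction. Without sensory nerve+ replicate 2 the median was 1.50, with 16 genes at the mark, and without sensory nerve- replicate 3 it was 1.72, also with 16. The shares of all genes higher at the mark were 7.67% and 4.67% there.

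The signals that drive osteoclast formation differed less than the osteoclast genes. Tnfsf11, which encodes RANKL, measured 2.24, 1.97, 1.68 and 2.18 CPM against 2.34, 4.62, 1.86 and 3.83 CPM, with a log2 fold change of 0.65 (SE 0.33). The groups overlapped. Csf1r, the M-CSF receptor of osteoclasts and macrophages, stood at 0.95 (SE 0.36). Of the 8 genes of the RANKL, OPG and M-CSF axis, 6 were higher, with a median of 0.55. The 2 receptor genes Tnfrsf11a and Csf1r reached an unadjusted p under 0.05, beside 4.35% of all genes in that direction. Of the further higher genes that DESeq2 called, 3 were named after their values were seen. The collagen-binding integrin gene Itga2 measured 10.4, 9.48, 10.9 and 8.93 CPM against 26.6, 28.5, 14.6 and 44.0 CPM, the cystatin gene Cst3 measured 674, 942, 708 and 593 CPM against 1573, 2197, 1090 and 1367 CPM, and the proton pump subunit gene Atp6v0e1 differed by 0.80 (SE 0.17). None of these 3 overlapped between the groups.

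Most genes of osteocytes were higher after transection. Dmp1, a matrix protein by which osteocytes control mineral, measured 102, 134, 117 and 57.5 CPM against 561, 380, 108 and 662 CPM, with a log2 fold change of 2.06 (SE 0.53) and an adjusted p of 0.0288 by DESeq2. Dkk1, a secreted inhibitor of Wnt signalling, measured 1.54, 3.98, 1.63 and 1.49 CPM against 23.1, 12.9, 2.06 and 32.9 CPM, at 3.03 (SE 0.77) and an adjusted p of 0.0129 by DESeq2. In both genes replicate 3 of the transected group lay among the intact rats and the other 3 rats lay above all of them. Mepe, a phosphoglycoprotein of the mineralizing matrix, had a log2 fold change of 2.59 (SE 0.78). Phex, the protease gene mutated in X-linked rickets, stood at 2.13 (SE 0.66), and Sost, the osteocyte gene for the Wnt inhibitor sclerostin, at 1.93 (SE 0.74). Of 9 osteocyte genes tested, 6 were higher and 3 lower, with a median of 1.93. At an unadjusted p under 0.05 were 5 of the higher ones and 1 of the lower ones, beside 4.35% and 4.98% of all genes. That lower gene was Reln, an extracellular matrix gene that lymphatic endothelial cells also use, at -1.68 (SE 0.60), named after its value was seen. Without sensory nerve+ replicate 2 the median was 1.28, with 5 higher and 3 lower genes at the mark, and without sensory nerve- replicate 3 it was 2.23, with 6 and 1. In those fits 7.67% and 4.67% of all genes were higher at the mark, and 14.2% and 8.09% lower. The osteocyte median was 1.00 without sensory nerve- replicate 2 or replicate 4, and 1.16 without replicate 1 of that group.

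**Figure D2:**
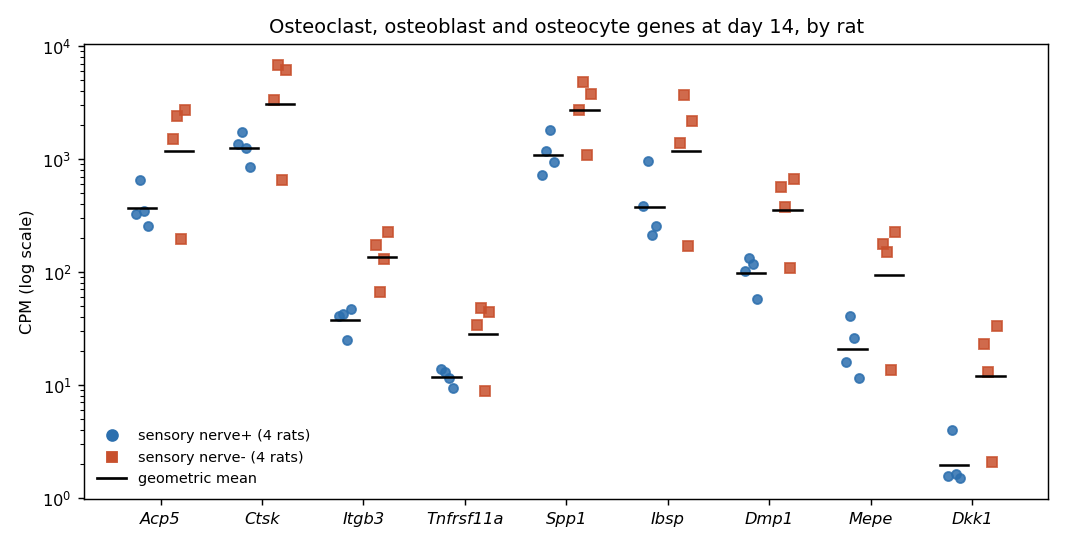
Levels of 9 genes of osteoclasts, osteoblasts and osteocytes at day 14, in CPM on a log axis, with 1 point per rat, circles for sensory nerve+, squares for sensory nerve- and lines for the geometric mean of 4 rats. In each gene at least 3 squares lie above the circles, and the lowest square lies among or below the circles except for Itgb3, where it is at 66.2 CPM.

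Among 18 osteoblast genes tested, all 18 were higher after transection, with a median of 1.11. An unadjusted p under 0.05 was reached by 3, beside 4.35% of all genes in that direction. Phospho1, a phosphatase that starts mineral formation, measured 97.7, 57.0, 92.2 and 83.9 CPM against 120, 143, 265 and 158 CPM. It was the one gene of the list without overlap, beside 1.45% of all genes in that direction. Replicate 3 was here the highest transected rat, and the log2 fold change was 1.05 (SE 0.28). Spp1, or osteopontin, which osteoclasts and macrophages make too, stood at 1.42 (SE 0.50), and Ibsp, bone sialoprotein, at 2.03 (SE 0.86). Runx2, the transcription factor that commits cells to the osteoblast lineage, measured 59.8, 110, 69.8 and 57.0 CPM against 105, 204, 61.8 and 138 CPM. Its groups overlapped and its log2 fold change was 0.78 (SE 0.37). Sp7, the next factor in that lineage, stood at 1.27 (SE 0.79), and at 2.14 without replicate 2 of the intact group, which measured 75.2 CPM where the other intact rats were at or below 19.6 CPM. Without that rat the osteoblast median was 1.58 with 13 genes at the mark, where 7.67% of all genes were higher. Without sensory nerve- replicate 3 it was 1.37 with 10, where 4.67% of all genes were higher.

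Cartilage genes were uneven. Of 14 tested, 11 were higher, with a median of 0.74 and 3 at an unadjusted p under 0.05, beside 4.35% of all genes in that direction. With 1 rat left out the median ran from 0.14, without sensory nerve- replicate 2, to 1.20, without sensory nerve- replicate 3, where 5 genes reached the mark. Col2a1, the main collagen of cartilage, measured 14.1, 0.939, 4.93 and 60.0 CPM against 144, 393, 2.58 and 139 CPM, with overlapping groups and a log2 fold change of 3.09 (SE 1.47). Acan, the large proteoglycan of cartilage, stood at 1.63 (SE 0.62) over all rats and at 0.73 without sensory nerve- replicate 2, and the link protein gene Hapln1 stood at 3.30 (SE 1.22), or at 1.45 without that same rat. Of 24 Wnt and BMP genes, 15 were higher, with a median of 0.35, or -0.08 when scaled by library totals, which moved the median of all genes to -0.41. The 3 higher genes at the mark, beside 4.35% of all genes, were the secreted Wnt inhibitor gene Frzb at 1.52 (SE 0.56), Bmp3 at 1.62 (SE 0.54) and Bmp7. The 1 lower gene, beside 4.98% of all genes, was the BMP antagonist gene Nog at -1.50 (SE 0.64).

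Genes of T and NK cells were higher in the transected rats. The T cell adhesion gene Cd2 measured 11.3, 10.5, 4.72 and 5.32 CPM against 42.4, 13.4, 22.2 and 14.1 CPM. It was the 1 gene of the list whose groups did not overlap, beside 1.45% of all genes in that direction. Its log2 fold change was 1.53 (SE 0.46). Cd3e, a chain of the T cell receptor complex, measured 23.4, 20.8, 8.82 and 14.4 CPM against 89.6, 8.88, 53.9 and 34.8 CPM. Here replicate 2 of the transected group lay at the level of the lowest intact rat, and the log2 fold change was 1.47 (SE 0.63). The coreceptor genes Cd4 and Cd8a stood at 0.84 (SE 0.29) and 1.29 (SE 0.49), and Foxp3, the factor of regulatory T cells, at 1.25 (SE 0.44). Of 16 genes tested, 15 were higher, with a median of 1.32. An unadjusted p under 0.05 was reached by 8, beside 4.35% of all genes in that direction. The number of T and NK cell genes at the mark was 5 without sensory nerve+ replicate 2 and 2 without sensory nerve- replicate 3. The medians were 1.53 and 1.34, and 7.67% and 4.67% of all genes were higher at the mark in those fits. The chemokine genes Ccl4 and Ccl5, which T and NK cells secrete, stood at 1.24 (SE 0.48) and 1.72 (SE 0.69).

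Macrophage genes differed less. Cd68, a lysosomal protein of macrophages that osteoclasts share, measured 92.8, 153, 114 and 103 CPM against 203, 312, 94.4 and 300 CPM, with the order of rats seen for Acp5 and a log2 fold change of 0.97 (SE 0.37). Of 20 macrophage genes, 18 were higher, with a median of 0.44. An unadjusted p under 0.05 was reached by 3, beside 4.35% of all genes in that direction. Nos2, the inducible nitric oxide synthase of inflammatory macrophages, measured 8.46, 36.1, 4.99 and 66.0 CPM against 13.4, 25.0, 30.1 and 276 CPM. The difference of 1.58 (SE 1.15) rested on replicate 4 and was -0.34 without it. Neutrophil genes had a median of -1.91, and that rested on sensory nerve+ replicate 2, where the granule enzyme gene Mpo was at 484 CPM and Ctsg, or cathepsin G, at 231 CPM. Without that library the median of the 14 neutrophil genes was 0.39. All 23 cell cycle genes were lower, with a median of -0.64, none at an unadjusted p under 0.05, and the proliferation marker gene Mki67 measured 180 CPM in the same library. The cell cycle median was -0.05 without it.

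Muscle RNA moved with the groups as well, and its part in the differences above was not tested. Acta1, the actin of skeletal muscle, measured 10190, 87.8, 4109 and 6069 CPM against 95.9, 463, 2467 and 98.3 CPM. All 22 muscle genes tested were lower, with a median of -2.74, and 1 of them, the small heat shock gene Cryab at -2.98 (SE 1.08), reached an unadjusted p under 0.05. Without sensory nerve+ replicate 2 that number was 19, with a median of -3.18, and without sensory nerve- replicate 3 it was 21, with a median of -4.44. The shares of all genes lower at that mark were 4.98% over all 8 rats, then 14.2% and 8.09% in these 2 fits. The 14 myogenic regulators, among them Pax7 of satellite cells and Musk of the neuromuscular junction, were all lower, with a median of -3.09. Acta1 was lowest of all 8 rats in sensory nerve+ replicate 2 and reached 2467 CPM in sensory nerve- replicate 3. Nuclear-encoded genes of oxidative phosphorylation, which muscle uses heavily, were lower in 26 of 27 cases, with a median of -0.46 and 8 at an unadjusted p under 0.05. Without sensory nerve+ replicate 2 that number was 22 of 27, with a median of -0.66. Without sensory nerve- replicate 3 it was 12, with a median of -0.56, beside the same shares of all genes as for muscle. An example is the complex III gene Uqcrc1 at -0.51 (SE 0.19).

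**Figure D3:**
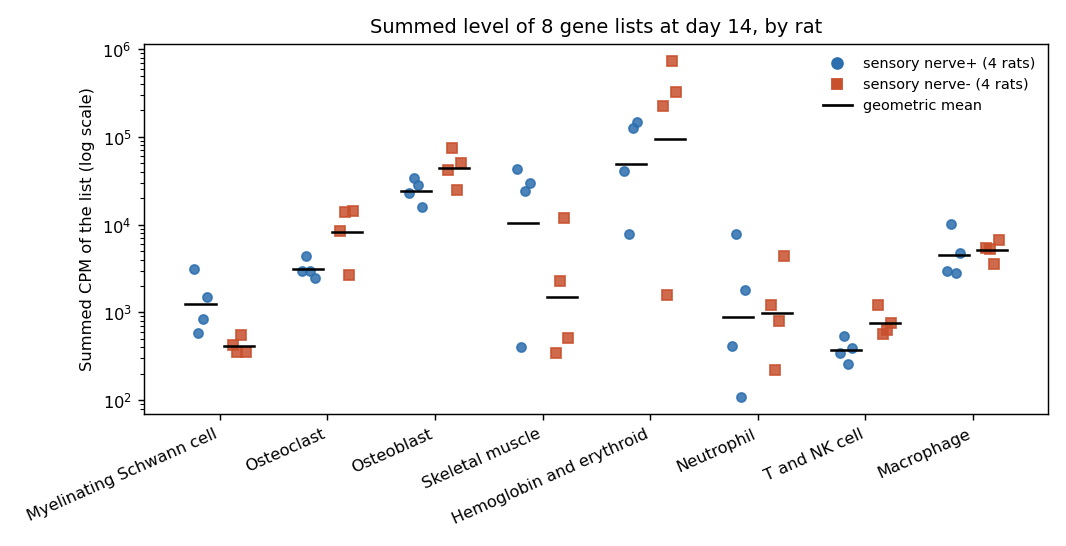
Summed CPM of 8 gene lists at day 14 on a log axis, with 1 point per rat, circles for sensory nerve+, squares for sensory nerve- and lines for the geometric mean of 4 rats. The myelinating Schwann cell list does not overlap between the groups, the muscle list has sensory nerve+ replicate 2 at 405 CPM among the transected rats, and the hemoglobin list reaches 735974 CPM in sensory nerve- replicate 3.

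**Figure D4:**
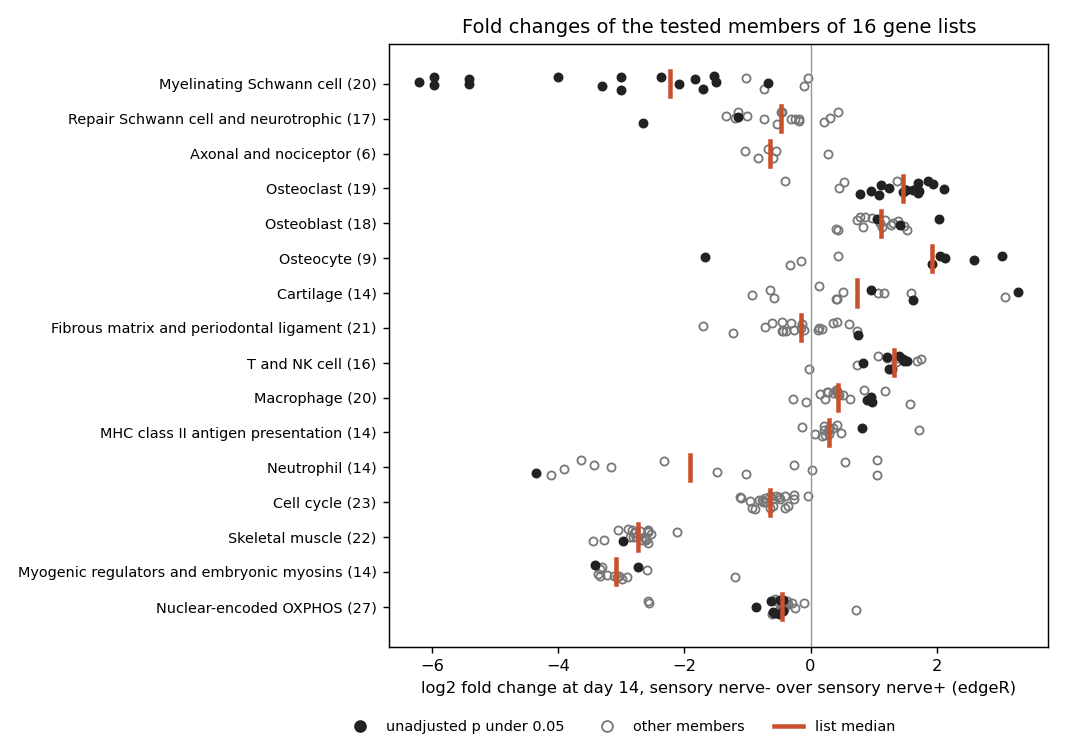
Log2 fold changes, sensory nerve- over sensory nerve+, of the tested members of 16 gene lists, with 1 point per gene, filled where the unadjusted edgeR p was under 0.05, and a bar at the list's median. Myelinating Schwann cell genes reach -6.21, osteoclast genes have a median of 1.46, and the muscle genes lie close together around -2.74 with 1 of them filled.

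On the higher side, most of the 8 genes with the smallest p values were outside these groups. Rhbdl2, an intramembrane protease gene, measured 9.06, 12.2, 7.35 and 9.04 CPM in the intact rats and 26.6, 20.3, 24.8 and 25.4 CPM in the transected rats. Its log2 fold change was 1.37 (SE 0.19), between 1.26 and 1.48 with any 1 rat left out, and DESeq2 gave an adjusted p of 4.74e-06. Prpsap1, which binds the enzyme of phosphoribosyl pyrophosphate synthesis, measured 42.0, 44.6, 39.4 and 38.7 CPM against 61.4, 67.6, 64.9 and 58.5 CPM, with a log2 fold change of 0.62 (SE 0.11). Both were higher in every transected rat, the one richest in hemoglobin included. The potassium channel subunit gene Kcns3 stood at 1.29 (SE 0.22), the oligosaccharyltransferase subunit gene Ost4 at 0.71 (SE 0.12), the copper chaperone gene Atox1 at 0.78 (SE 0.14) and the actin bundler gene Pls1 at 1.32 (SE 0.24). The uncharacterized LOC120096689 stood at 1.44 (SE 0.27), and Itgb3 completed the 8 higher genes.

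On the lower side, Mag, Ugt8, Ncmap and Gldn made up 4 of the 8. Aldh1a3, an enzyme that makes retinoic acid, measured 44.2, 26.9, 45.2 and 33.4 CPM in the intact rats and 7.88, 17.5, 10.3 and 7.17 CPM in the transected rats. The groups did not overlap, with a log2 fold change of -1.80 (SE 0.32) and an adjusted p of 0.000114 by DESeq2. Tshr, the thyrotropin receptor gene, measured 1.19, 1.88, 2.73 and 2.60 CPM against 0.292, 0.205, 0.515 and 0.489 CPM, at -2.51 (SE 0.43). The transcriptional coactivator gene Cited4 stood at -1.61 (SE 0.30) and Cdip1, a gene of cell death signalling, at -0.81 (SE 0.16). None of these 4 overlapped between the groups.

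The same comparison was made at days 3 and 7 in order to see whether day 14 differed from them. At an unadjusted p under 0.05 there were 122 of 14695 genes at day 3 (0.83%) and 215 of 14716 at day 7 (1.46%), against 9.32% at day 14. Day 3 had 3 sensory nerve+ and 4 sensory nerve- rats. At day 7 the sensory nerve- rats were in a table of their own, which cannot be told apart from the transection. Such shares depend on the number of rats and the spread between them as well as on the effect. With all 23 rats scaled together, Ugt8 lay between 0.143 and 2.15 CPM at days 3 and 7 in all rats of both groups but 1. The exception was sensory nerve- replicate 2 at day 3, with 74.6 CPM of Ugt8 and 291 CPM of Mbp. At day 14 the intact rats measured 38.2, 19.7, 6.61 and 21.9 CPM of Ugt8 and the transected rats 1.80, 1.86, 2.32 and 4.90 CPM. For Ugt8, the transected rats of day 14 lay between the intact ones and most earlier rats. For Mbp, too, the transected rats of day 14, at 33.7 to 50.8 CPM, were above every other rat of days 3 and 7 but that same 1. For Mag, Cldn19 and Prx they lay at the level of the earlier rats. Mag reached at most 0.331 CPM in the transected rats of day 14 and 0.417 CPM at days 3 and 7. Prx lay between 3.68 and 9.92 CPM in the former and between 3.40 and 13.0 CPM in the latter. Cldn19 reached 1.44 CPM in the former and 0.956 CPM in the latter, apart from 9.21 CPM in the same exception.

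A test of the difference itself, the effect at day 14 minus the effect at day 3, used the same day 14 rats and called no gene by edgeR, with a smallest adjusted p of 0.72 over 15547 genes. Of those genes 321 (2.06%) were higher and 712 (4.58%) lower at an unadjusted p under 0.05. Of the 22 myelinating genes tested 17 were lower at that mark, with a median difference of -5.33. Without the high rat of day 3 the number was 11 of 21 and the median -1.78, where 2.97% of all genes were lower. DESeq2, which was run only with the high rat of day 3 kept in, called 18 genes, 14 of them lower (0.09%). Cldn19, Ugt8, Sox10, Prx, Mag and Gldn were among these 14. Rundc3a and Otud7a were among the 4 higher ones. Rundc3a measured 1.59, 0.951, 1.15 and 1.43 CPM in the intact rats of day 14 and 3.27, 2.26, 2.65 and 3.24 CPM in the transected ones, while at day 3 its sensory nerve+ rats were the higher, at 2.88 to 4.52 CPM against 1.57 to 2.67 CPM.

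Against day 7, edgeR called no gene over 15291 genes, with a smallest adjusted p of 0.925, and DESeq2 called none either. At an unadjusted p under 0.05 there were 586 genes, 2.47% of the genes higher and 1.36% lower. Of 20 myelinating genes 11 were lower at that mark, with a median difference of -2.03, and of 20 osteoblast genes 9 were higher. At day 7 itself only 1 of 19 osteoblast genes was higher after transection, with a median log2 fold change of -0.66. The osteoblast difference therefore includes that opposite sign at day 7. The sensory nerve- rats of day 7 were listed in a separate table from all other rats. The table therefore cannot be told apart from the transection at day 7 in this difference. Osteoclast genes had median differences of 1.00 from day 3 and 0.50 from day 7, with no gene at the mark in either. At day 7 itself 18 of 19 osteoclast genes were already higher after transection, with a median log2 fold change of 0.90. At day 3 there were 15 of 19, with a median of 0.15. No osteoclast gene was at the mark on either of these days. Acp5 lay between 103 and 839 CPM in the intact rats of day 7 and between 127 and 2543 CPM in the transected ones, so the groups overlapped. Rhbdl2, Prpsap1 and Tub had the smallest p values among the higher differences from day 7. Rhbdl2 and Prpsap1 were also among the 8 higher genes with the smallest p values at day 14. This difference used the same day 14 rats, so their return in it is no separate support. The monocarboxylate transporter gene Slc16a1 was among the 3 smallest on the lower side, with 58.3, 77.0, 36.3 and 67.7 CPM in the intact rats of day 14 and 36.1, 30.6, 39.2 and 28.1 CPM in the transected ones.

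**Figure D5:**
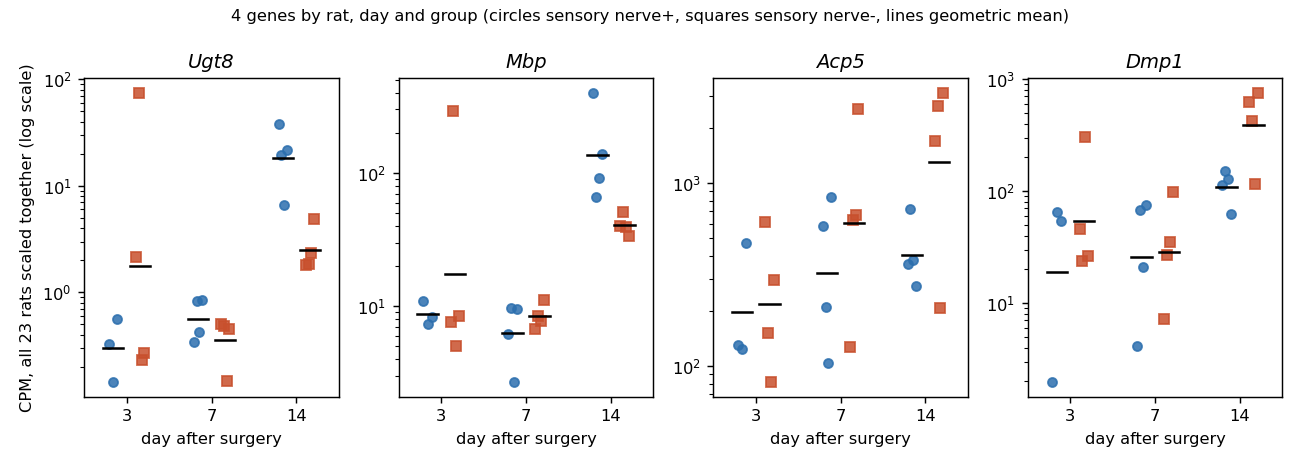
Levels of Ugt8, Mbp, Acp5 and Dmp1 at days 3, 7 and 14 in CPM on log axes with all 23 rats scaled together, with 1 point per rat, circles for sensory nerve+, squares for sensory nerve- and lines for the geometric mean of each group. Ugt8 is high in the 4 intact rats of day 14 and in 1 transected rat of day 3 at 74.6 CPM, and at or below 4.90 CPM in all the others.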

How the data were processed

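Samples were grouped by their GEO titles. According to the sources, libraries were made with the BGI mRNA-seq kit on the DNBSEQ platform, and the submitters' processing notes name HISAT, Bowtie2 and the build mRatBN7.2. The counting tool, its version and the use of strand were not given in the sources used here. The deposited values are expected counts per gene from the authors, not normalized, of which 30.6% to 46.9% per library were whole. They were rounded here. A read that fits several gene copies may be divided among them, and reads of antisense partners may be mixed in.

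Genes were filtered with filterByExpr, scaled by TMM and tested with edgeR's quasi-likelihood test (version 4.0.16, R 4.3.3, limma 3.58.1) over the 8 rats of day 14, with Benjamini-Hochberg adjustment over all genes tested. Differences between days were contrasts over the rats of both days. Methods were first tested on simulated data. DESeq2 1.42.0, DESeq2's size factors within edgeR (RLE), library totals, no filter, a filter of 1 CPM in 4 rats, a fit over 19 rats, a replicate block and leaving out each rat were the alternatives.

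The 31 gene lists and the rules for naming genes were chosen with earlier results of these data known. Genes were named when the study names them, when they had 1 of the 8 smallest p values in a direction, when they were the first 2 or among the 4 smallest p values of a list, or when they had 1 of the 3 smallest p values of a difference between days. Others are said to have been named after their values were seen. The table from cultured cells was not used. Promoters came from RefSeq (GRCr8), with the last 50 of the 300 bases of each window left out. Some genes of the lists are counted but not reported here by name.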

Additional observations from a re-analysis of the deposited data

Results flagged for a closer look

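In groups of 4 rats, the highest or lowest rat was compared with the other 3 by the gap to its neighbour over the whole range of log2 levels, against Dixon's critical value for 4 samples, for each named gene and each list. Chance sets about 1 group in 20 beyond that value. Of 268 such groups, 19 had a rat this far from the others (7.09%), and replicate 2 of the sensory nerve+ group was that rat in 9 of them and replicate 3 of the sensory nerve- group in 6. Among these 6 are Calca, Calcb and Kcna1, where zeros in the other 3 rats fixed the outcome.

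Sensory nerve+ replicate 2 was far below the other intact rats for the mean level of the skeletal muscle genes, with a gap of 0.88 of the range, for Cryab at 0.831 and for Pax7 at 0.887. It was also the low one for Tubb3 at 0.904, for Egr2 at 0.903, for Postn at 0.928 and for the adipocyte genes at 0.87. It was the high one for the MHC class II genes at 0.943 and for Dkk1 at 0.917. The fold changes of these genes without that rat were -3.42 for Cryab, -3.81 for Pax7, -0.88 for Tubb3 and 3.47 for Dkk1.

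Sensory nerve- replicate 3 was the low one for Mepe at 0.855 and for Csf1r at 0.85. It was the high one for Pou3f1 at 0.959. It was also the high one for Calca, Calcb and Kcna1, where the other transected rats were all at 0. There the gap is the whole range, 1, for any value above 0, so these flags were fixed by the zeros. The values were 1 count of Calca, 2 counts of Calcb and 0.206 CPM of Kcna1. Sensory nerve- replicate 1 stood high for Atox1 at 0.88, for Mki67 at 0.907 and for Nefm at 0.831. Sensory nerve+ replicate 3 stood low for Ccl5 at 0.856.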

How the results depend on the processing

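With 4 rats a side and this spread, edgeR called no gene at day 14 in any alternative. The number of genes at an unadjusted p under 0.05 ran from 589 to 3235 with 1 rat left out, highest without sensory nerve+ replicate 2, and was 1801 with library totals, 1381 with RLE factors, 1624 without a filter, 1290 with the stricter filter and 1958 in the fit over 19 rats. DESeq2 called 95 genes at day 14, and 18 for the difference from day 3, where edgeR called none. Library totals moved the median of all genes from 0.03 to -0.41, and the medians of 11 lists turned sign with it, those of Schwann cells, axons, osteoclasts, osteoblasts, osteocytes, cartilage, muscle and T cells not being among them. Replicate numbers were not treated as pairs in the main fit. Deviations of same-numbered rats correlated at -0.34, -0.13, 0.44 and 0.06, and those of differently numbered rats ran from -0.64 to 0.63. With so few rats these values can neither show nor exclude a pairing. With the replicate block edgeR called no gene at day 14 and 751 had an unadjusted p under 0.05, and under the block Mal stood at 0.12.

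Of 1437 alternative log2 fold changes of named genes, 1433 kept their direction. The others were Mal under the block and values with 1 rat left out, where Nos2 ran from -0.34 to 2.37 and Mal from -0.34 to 0.36. For the differences between days, edgeR called no gene with any rat left out, and the number at an unadjusted p under 0.05 ran from 648 to 2259 against day 3 and from 364 to 1310 against day 7. The cause of these shifts was not tested. Depth limits the genes of axons, of which 12 of 18 could not be tested.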

Other observations

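Among genes of complement and phagocytic receptors, 14 of 19 were higher, with a median log2 fold change of 0.31. The complement receptor gene C3ar1 stood at 0.70 (SE 0.27), while Cfb, the complement factor of the alternative pathway, stood at -1.83 (SE 0.76) and Axl, a receptor for dying cells, at -0.90 (SE 0.38). These were the 3 genes of that list with an unadjusted p under 0.05 in edgeR, and each overlapped between the groups. At that mark 4.35% of all genes were higher and 4.98% lower. Cfb ranged from 5.67 to 82.6 CPM in the intact rats and from 6.64 to 13.5 CPM in the transected rats, so its mean difference rested on sensory nerve+ replicates 3 and 4. Genes of fibrous matrix and periodontal ligament had a median of -0.15, with 8 of 21 higher, and collagen-degrading enzymes one of 0.33, with 18 of 22 higher. Of the latter 6 had an unadjusted p under 0.05, where 4.35% of all genes were higher at that mark, and without sensory nerve+ replicate 2 there were 4 higher and 1 lower. Epithelial genes had 6 of 22 members with enough counts, all 6 lower, with a median of -0.56. At the mark, where 4.98% of all genes were lower, were Epcam, a cell adhesion molecule of epithelia, at -2.09 (SE 0.77) and Cdh1, or E-cadherin, at -1.44 (SE 0.54), both named after their values were seen and both overlapping between the groups. Only Epcam reached it without sensory nerve+ replicate 2, where Cdh1 stood at -0.81.

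The remaining immune and vascular lists had medians between -0.19 and 0.36, some of which turned sign when a rat was left out or when library totals set the scale. MHC class II genes had a median of 0.29, inflammatory cytokines 0.36, chemokines 0.15, interferon response genes 0.23, B and plasma cell genes 0.14, endothelial genes 0.31 and adipocyte genes -0.19. Genes of CGRP and adrenomedullin signalling, its receptors included, had a median of 0.14 over 7 of 11 members. Hemoglobin and erythroid genes were higher in 12 of 13 cases, with a median of 1.39, or 0.64 without sensory nerve- replicate 3, and none had an unadjusted p under 0.05. Tooth and salivary gland lists had 2 and 1 members with enough counts.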
